A study of Mus musculus with 12 samples.

Results

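The genes described here are the nuclear-encoded parts of the mitochondrial respiratory chain and ATP synthase, together with the assembly factors and tissue isoforms that share their names. Members were taken from the gene table by symbol, with Ndufa, Ndufb, Ndufc, Ndufs and Ndufv for complex I, Sdha to Sdhd for complex II, Uqcr and Cyc1 for complex III, Cox4 to Cox8 for complex IV, Atp5 for complex V, and Cycs. This gave 90 of the 10655 listed genes, namely 44 in complex I, 4 in complex II, 9 in complex III, 15 in complex IV, 17 in complex V, and Cycs. By role they were sorted into 21 core subunits, 53 accessory subunits, 10 assembly factors, 5 tissue isoforms and the carrier Cycs. The rule used no measured value. RNA of mouse aortic endothelial cells was sequenced by SMART-seq in 12 libraries, 3 in each of 4 groups titled CD_CD, WD_CD, CD_WD and WD_WD. In each title the diet named first is taken to be that of the mother and the other that of the offspring, a reading that rests on how the series text orders its groups and is not stated in the titles. CD and WD are written as in the titles, and offspring on WD had it for a further 4 weeks according to the series text. Genotype, strain, sex, age and the way the cells were isolated are not in the labels. Nothing says either that the 3 libraries of a group are 3 animals, and p-values thus cover the spread between libraries, which may be technical.

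The respiratory chain carries electrons from NADH (complex I) or succinate (complex II) through ubiquinone to complex III, by the small haem protein cytochrome c to complex IV, and from there to oxygen. Complexes I, III and IV pump protons across the inner mitochondrial membrane, and complex V, the ATP synthase, uses that gradient to make ATP. Complexes I, III, IV and V combine a catalytic core with many small accessory subunits, while complex II consists of its nuclear-encoded core alone and is also an enzyme of the citric acid cycle. Endothelial cells are known for drawing much of their ATP from glycolysis.

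The libraries differed in more than the diet. Shares of reads are given here as shares of the reads in all listed genes. The 12 endothelial markers examined took 0.726% to 1.22% of the reads in the 6 libraries of CD offspring and 0.00638% to 0.190% in the 6 libraries of WD offspring, so the markers of the labelled cell type were low in the latter. The 10 macrophage markers took 0.158% to 1.45% with CD and 0.144% to 4.57% with WD, the 5 neutrophil markers 0.00221% to 0.0160% and 0.0671% to 1.28%, the 9 lymphocyte markers 0.00358% to 0.0641% and 0.0521% to 1.38%, and the 8 smooth muscle markers 0.169% to 1.22% and 0.00385% to 0.115%. None of these markers in the table was at 0 in every library. CD_WD replicate 1 had the lowest endothelial share and the highest lymphocyte share, and it also held the highest value of many members. Its macrophage share was the 0.144%. In the other WD offspring libraries that share was 2.42% to 4.57%, above every CD offspring library. Reads in listed genes ranged from 10667657 to 19670570 with CD and from 4074413 to 18013966 with WD. Fewer cells of a type and less RNA per cell cannot be told apart in bulk RNA, and neither can the offspring's diet and whatever else differed between these preparations.

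Most subunits of the respiratory chain were higher in WD than in CD offspring. Levels are the deposited normalised read counts, each library's counts divided by its own size factor, and log2 fold changes are differences of group means of log2(value + 1). With CD mothers, 55 of the 90 members were higher in CD_WD than in CD_CD and 0 were lower (limma, adjusted p under 0.05), where 9.46% of all genes were called higher and 5.55% lower. With WD mothers, 65 were higher in WD_WD than in WD_CD and 0 were lower, where 14.2% of all genes were called higher and 10.2% lower. The median log2 fold change over the members was 1.62 and 1.92, and that over all genes -0.020 and 0.0066. These 2 comparisons share no library, but they rest on the same estimate of each gene's spread. The other differences between CD and WD offspring libraries given above enter both. Called higher in both were 55 members, where 7.74% of all genes were, 10 with WD mothers alone and 25 in neither. All 3 WD libraries lay above all 3 CD libraries for 74 members with CD mothers, where 21.9% of all genes separated this way, and for 75 with WD mothers, where 21.9% did. Without CD_WD replicate 1 the count with CD mothers was 52 and the median 1.33, where 8.51% of all genes were called higher. On the recovered reads, edgeR called 53 and 61 members higher with CD and WD mothers, where it called 8.64% and 10.4% of all genes, and DESeq2 63 and 67, where it called 13.4% and 15.9%.

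**Figure D1:**
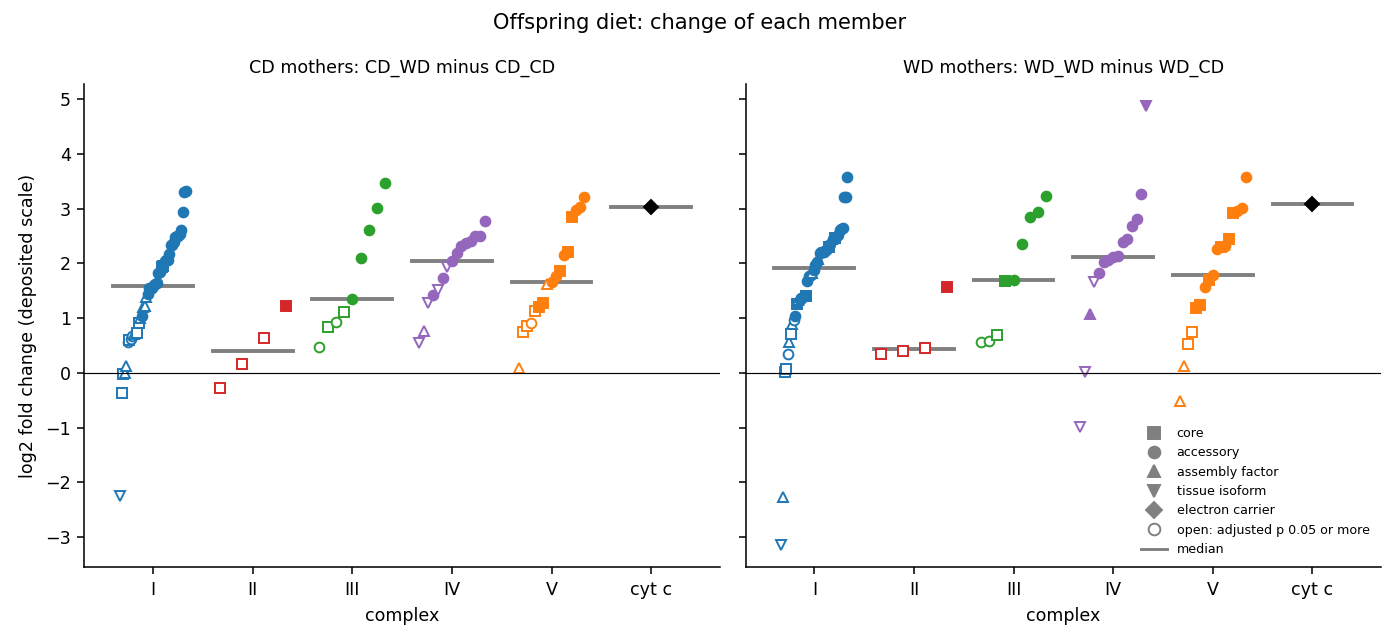
Log2 fold change of each of the 90 members between WD and CD offspring, by complex, for CD mothers (left) and WD mothers (right). Filled symbols passed the adjusted p threshold, shapes give the role and grey bars the median; complex II has the lowest median of the 5 complexes in both panels, 0.40 and 0.43, and Cycs sits at 3.03 and 3.08.

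These fold changes are on the scale of the deposited values, which set the median of all genes near 0. As a measure that needs no such scaling, the share of the reads in all listed genes was taken. The 90 members together took 1.37% to 1.99% of these in the CD offspring libraries and 2.34% to 2.89% in the WD offspring libraries, with no overlap. Scaling the libraries to their totals shifted the median log2 fold change of all genes to -1.33 with CD mothers and -1.25 with WD mothers. On that scale 25 members were higher and 6 lower with CD mothers, where 3.09% of all genes were called higher and 43.2% lower, and the members' median was 0.17. With WD mothers 32 were higher and 9 lower, where 4.55% of all genes were called higher and 42.6% lower, with a median of 0.53.

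**Figure D2:**
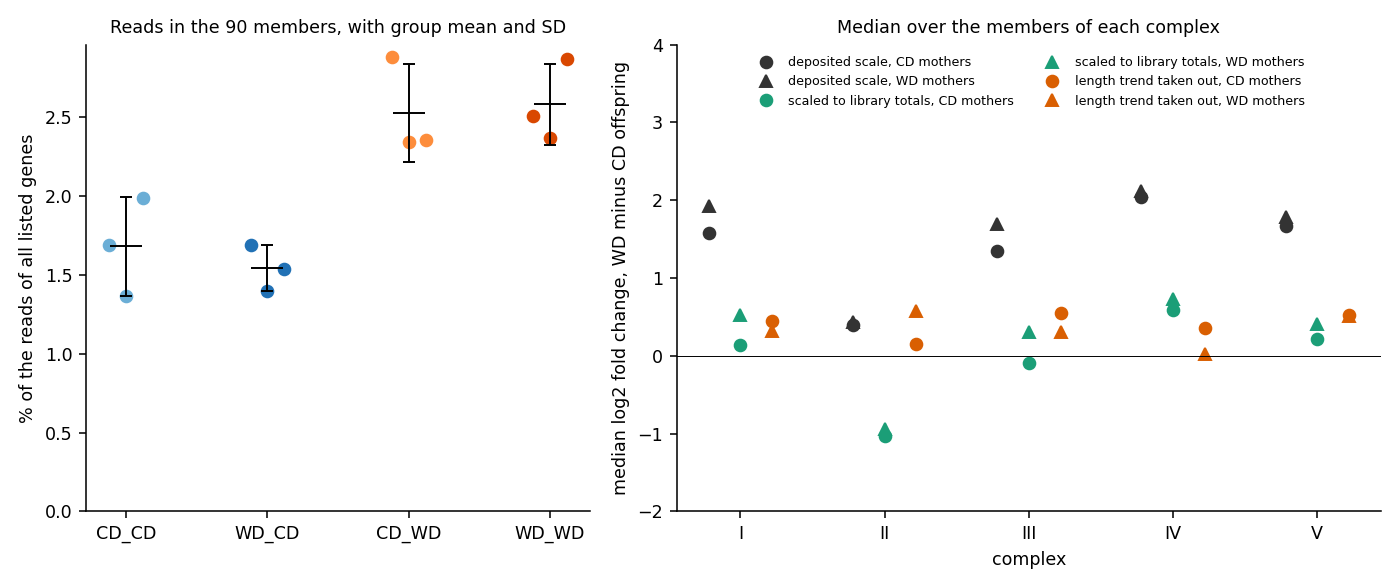
Left, the share of the reads in all listed genes that fell in the 90 members in each library, with group mean and SD (n = 3), 1.37% to 1.99% with CD and 2.34% to 2.89% with WD offspring. Right, the median log2 fold change of each complex on the deposited scale, scaled to library totals, and with the transcript length trend taken out. Circles are for CD mothers and triangles for WD mothers. On the scale of library totals complex II stands at -1.04 and -0.95, beside -1.33 and -1.25 for the median of all genes.

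Cytochrome c, encoded by Cycs (chr6:50562563-50566538, GRCm38), is the mobile carrier between complexes III and IV and takes part in apoptosis once released from mitochondria. Its normalised read count was 710.5, 517 and 848 in the CD_CD libraries and 8377, 4737 and 4305 in the CD_WD libraries. With WD mothers it was 861, 614 and 496 in WD_CD and 5564, 5564 and 5171 in WD_WD. Every WD offspring library lay far above every CD offspring library. The log2 fold change was 3.03 ± 0.34 (SE, n = 3 against 3, limma adjusted p = 0.00054) with CD mothers and 3.08 ± 0.34 (limma adjusted p = 0.00034) with WD mothers, and without CD_WD replicate 1 the first was 2.73. Cycs and several small subunits have processed pseudogenes, and the sources used here do not give how reads shared with such copies were counted.

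The promoters of these genes can be set beside their changes. RefSeq windows of 300 bases, from 250 before to 50 after the start site (GRCm38.p6), matched 72 of the 90 members by symbol. Shown are Cycs, Atp5l, Uqcr10 and Cox5a, which rose, and Sdha, which did not pass the test. Capitals mark matches on either strand to the NRF1 core GCGCATGC, the ETS core CCGGAAGT, the YY1 motif AAGATGGCG and the GC box GGGCGG. None of these motifs holds another within it on either strand.
Cycs, chr6:50566520-50566819, minus strand: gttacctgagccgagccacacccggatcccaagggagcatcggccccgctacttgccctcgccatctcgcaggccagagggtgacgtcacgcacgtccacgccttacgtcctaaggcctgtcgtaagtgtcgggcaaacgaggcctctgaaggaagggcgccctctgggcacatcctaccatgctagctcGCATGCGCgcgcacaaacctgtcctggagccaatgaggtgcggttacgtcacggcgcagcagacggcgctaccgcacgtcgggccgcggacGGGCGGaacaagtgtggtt
Atp5l, chr9:44920693-44920992, minus strand: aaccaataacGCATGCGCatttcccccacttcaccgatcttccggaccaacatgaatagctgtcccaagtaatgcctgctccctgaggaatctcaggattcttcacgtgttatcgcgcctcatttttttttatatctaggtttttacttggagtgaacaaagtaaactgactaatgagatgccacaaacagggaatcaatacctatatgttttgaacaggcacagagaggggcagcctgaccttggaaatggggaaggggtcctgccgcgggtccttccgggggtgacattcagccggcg
Uqcr10, chr11:4704295-4704594, minus strand: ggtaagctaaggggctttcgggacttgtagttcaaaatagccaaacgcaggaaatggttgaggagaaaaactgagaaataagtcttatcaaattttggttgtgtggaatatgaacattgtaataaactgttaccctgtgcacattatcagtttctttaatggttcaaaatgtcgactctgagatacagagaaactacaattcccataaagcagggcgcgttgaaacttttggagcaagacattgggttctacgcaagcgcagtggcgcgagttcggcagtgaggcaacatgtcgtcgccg
Cox5a, chr9:57520982-57521281, plus strand: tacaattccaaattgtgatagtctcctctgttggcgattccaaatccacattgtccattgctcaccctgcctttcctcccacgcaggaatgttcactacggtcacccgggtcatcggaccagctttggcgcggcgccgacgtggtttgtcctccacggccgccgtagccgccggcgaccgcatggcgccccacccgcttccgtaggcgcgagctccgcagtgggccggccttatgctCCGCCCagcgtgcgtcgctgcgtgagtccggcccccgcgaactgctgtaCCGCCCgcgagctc
Sdha, chr13:74350191-74350490, minus strand: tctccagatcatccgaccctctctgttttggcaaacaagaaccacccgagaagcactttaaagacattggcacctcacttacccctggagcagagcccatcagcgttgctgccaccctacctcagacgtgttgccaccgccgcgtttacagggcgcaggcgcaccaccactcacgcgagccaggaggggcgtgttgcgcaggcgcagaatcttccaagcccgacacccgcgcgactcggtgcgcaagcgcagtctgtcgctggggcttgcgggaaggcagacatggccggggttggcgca
The NRF1 core begins 60 bases before the start site in Cycs and 240 bases before it in Atp5l, Cox5a holds 2 GC boxes, and the windows of Uqcr10 and Sdha hold none of the 4 strings. NRF1 is a transcription factor known for driving respiratory chain genes. Its core was found in 13 of the 72 windows (18.1%) and in 6.19% of the windows of the 8192 listed genes that have one. The YY1 motif was found in 9.72% of the members' windows against 3.88%, the ETS core in 6.94% against 9.59%, and the GC box in 44.4% against 69.7%. Members with the NRF1 core had a median log2 fold change of 2.37 with CD mothers and 2.14 with WD mothers, and those without it 1.76 and 2.07. Called higher were 8 and 9 of the 13 with it, and 41 and 49 of the 59 without it, which is a smaller share of those with it in both comparisons. For the YY1 motif these counts were 6 and 7 of 7 with it, and 43 and 51 of 65 without it. For the ETS core they were 4 and 5 of 5, and 45 and 53 of 67. Both are larger shares of those with the motif. For the GC box they were 18 and 24 of 32, and 31 and 34 of 40, a smaller share of those with it. Of all genes, 9.46% and 14.2% were called higher. A string match describes these windows and is not a measured site.

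Complex I takes electrons from NADH. Of its 7 core subunits in the table, which hold the flavin, the iron-sulphur clusters and the quinone site, 2 were called higher with CD mothers (Ndufs7 and Ndufs8) and 4 with WD mothers (Ndufs3 and Ndufv2 as well). Among all genes 9.46% and 14.2% were called higher. Ndufs7, an iron-sulphur subunit next to the quinone site, was 1083, 864 and 1618 in CD_CD and 8820.3, 2875 and 3428 in CD_WD. With WD mothers it was 1032, 854 and 716 against 5995, 4525 and 3979, and neither pair of groups overlapped. Its log2 fold change was 1.95 ± 0.42 (limma adjusted p = 0.0089) and 2.47 ± 0.42 (limma adjusted p = 0.0018). Ndufs1 (chr1:63143596-63176833), the large iron-sulphur subunit of the matrix arm, was 329, 438 and 286 in CD_CD and 246, 312 and 249.6 in CD_WD, and 537, 519 and 259 in WD_CD and 347, 452 and 538 in WD_WD. Its groups overlapped in both comparisons, with log2 fold changes of -0.37 ± 0.39 (limma adjusted p = 0.58) and 0.075 ± 0.39 (limma adjusted p = 0.90). Ndufv1, which binds NADH and the flavin, stood at -0.023 ± 0.35 and 0.019 ± 0.35 and did not pass. Scaled to library totals, Ndufs1 and Ndufv1 were called lower in both comparisons, at -1.74 and -1.45 with CD mothers. On that scale 43.2% and 42.6% of all genes were called lower, and the median of all genes was -1.33 and -1.25.

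The accessory subunits of complex I had larger fold changes. Of 29, 25 were called higher with CD mothers and 27 with WD mothers, with median log2 fold changes of 2.04 and 2.20. Ndufb7 (chr8:83566671-83571626), a small subunit of the membrane arm, was 1591, 1271 and 1989 in CD_CD and 29843, 11709 and 11283 in CD_WD. It was 1647, 1486 and 1658 in WD_CD and 18620, 13612 and 12702 in WD_WD, so the groups lay far apart. Its log2 fold change was 3.31 ± 0.39 (limma adjusted p = 0.00068) and 3.21 ± 0.39 (limma adjusted p = 0.00039). Ndufa2, a subunit of the matrix arm, had the highest log2 fold change of the complex in both comparisons, 3.32 ± 0.44 and 3.57 ± 0.44, and Ndufc1 rose by 2.94 ± 0.37 and 3.21 ± 0.37. Ndufab1, the mitochondrial acyl carrier protein, rose by 1.45 ± 0.36 and 1.34 ± 0.36, and Ndufa4, named for complex I and now counted with complex IV, by 1.56 ± 0.33 and 1.40 ± 0.33. Ndufa8 and Ndufa10 passed in neither comparison, and Ndufa9 and Ndufb3 with WD mothers alone. The ratio of Ndufb7 to Ndufs1 within a library was 2.86 to 6.96 in the 6 CD offspring libraries and 23.6 to 121 in the 6 WD offspring libraries.

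Of the assembly factors named with complex I, Ndufaf3 was called higher with WD mothers (2.08 ± 0.45, limma adjusted p = 0.0067) and not with CD mothers (1.39 ± 0.45, limma adjusted p = 0.055). Ndufaf1, Ndufaf2, Ndufaf4, Ndufaf5, Ndufaf6 and Ndufaf7 passed in neither. Ndufa4l2, a paralogue of Ndufa4 known for its induction by hypoxia, had the lowest log2 fold change of all members in both comparisons. It was 383, 262 and 339.6 in CD_CD and 5.07, 469 and 110.2 in CD_WD, and 210.4, 176 and 114 in WD_CD and 272, 1.52 and 7.92 in WD_WD. The WD libraries ranged from a few counts to above every CD library, and the log2 fold changes of -2.25 ± 1.63 and -3.15 ± 1.63 did not pass (limma adjusted p = 0.39 and 0.17), while edgeR gave -0.82 and -0.94.

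Complex II passes electrons from succinate to ubiquinone. Of its 4 subunits, Sdhb alone, the iron-sulphur subunit, was called, higher in both comparisons. Sdhb was 1203, 1184 and 1789.8 in CD_CD and 4485, 2837 and 2496 in CD_WD, and 1747, 971 and 1149 in WD_CD and 4125, 3436 and 3623 in WD_WD. Neither pair overlapped, with log2 fold changes of 1.21 ± 0.33 (limma adjusted p = 0.028) and 1.57 ± 0.33 (limma adjusted p = 0.0059); without CD_WD replicate 1 the first was 0.96 (limma adjusted p = 0.053). Sdha (chr13:74322254-74350280), the flavoprotein that binds succinate, was 1866, 1743 and 1511 in CD_CD and 1592, 1262 and 1353 in CD_WD. With WD mothers it was 1483, 1624 and 1542 in WD_CD and 1968, 2005 and 2186 in WD_WD. These groups overlapped with CD mothers and not with WD mothers, and neither log2 fold change passed, -0.28 ± 0.25 (limma adjusted p = 0.49) and 0.40 ± 0.25 (limma adjusted p = 0.25). The membrane anchors Sdhc and Sdhd stood at 0.17 and 0.63 with CD mothers and at 0.46 and 0.34 with WD mothers, and did not pass. Scaled to library totals, Sdha (-1.72) and Sdhc (-1.27) were called lower with CD mothers, and Sdha (-0.97) and Sdhd (-1.04) with WD mothers. So were 43.2% and 42.6% of all genes, whose median on that scale was -1.33 and -1.25.

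**Figure D3:**
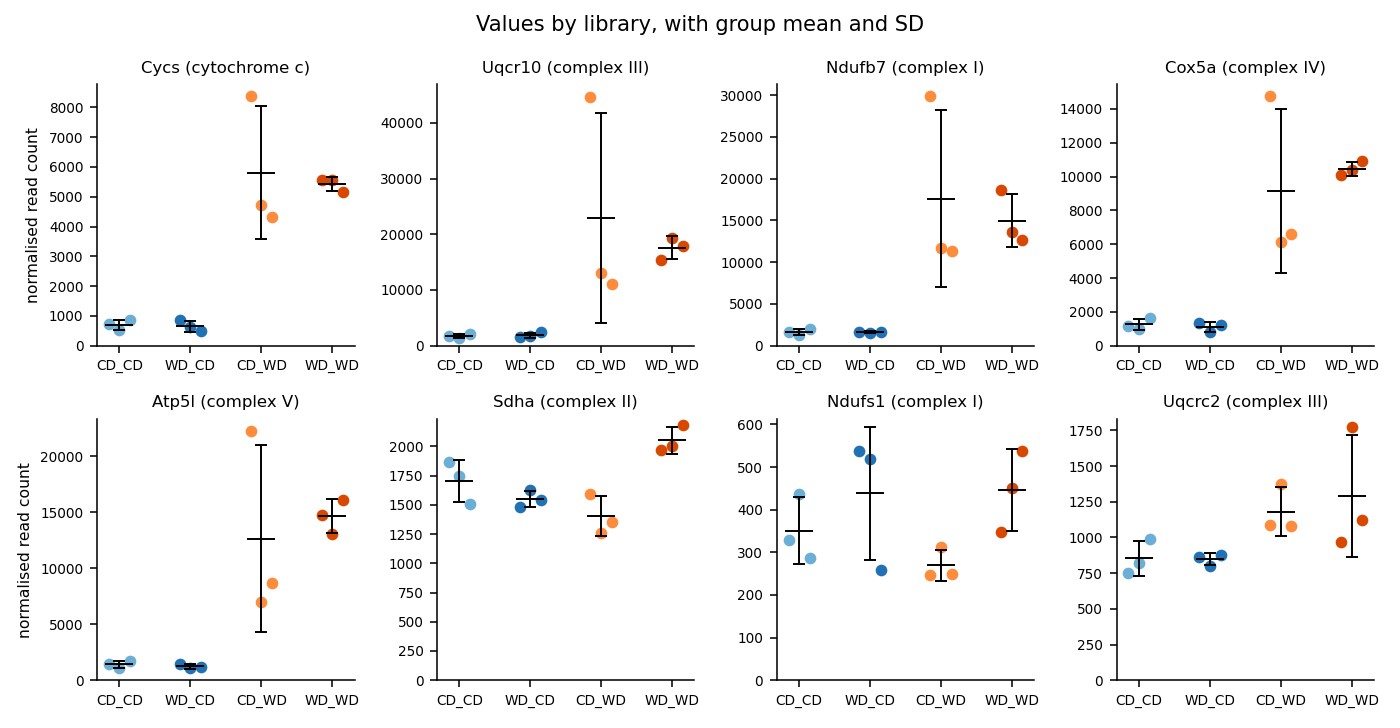
Normalised read count of 8 members in each of the 12 libraries, by group, with bars for the group mean and SD (n = 3). Cycs, Uqcr10, Ndufb7, Cox5a and Atp5l are higher in all 6 WD offspring libraries than in any CD offspring library, and CD_WD replicate 1 is the highest of the 12 for each of them; Ndufs1 overlaps between the diets.

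Complex III passes electrons from ubiquinol to cytochrome c. Its small accessory subunits Uqcr10, Uqcr11, Uqcrb, Uqcrh and Uqcrq were called higher in both comparisons. Uqcr10 (chr11:4701973-4704342) was 1692, 1301 and 2155 in CD_CD and 44730, 13127 and 11111 in CD_WD. It was 1634, 1649 and 2400 in WD_CD and 15451, 19406 and 17952 in WD_WD, so the lowest WD library was well above the highest CD library. The log2 fold change of 3.47 ± 0.47 (limma adjusted p = 0.0013) with CD mothers was the highest of all members, and with WD mothers it was 3.23 ± 0.47 (limma adjusted p = 0.00086). Without CD_WD replicate 1 the first was 2.84. Uqcr11 rose by 3.01 ± 0.34 and 2.85 ± 0.34, and Uqcrb, which takes part in the quinone site, by 1.35 ± 0.33 and 1.69 ± 0.33.

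The redox subunits and the large matrix-side subunits of complex III had smaller fold changes. Cyc1, cytochrome c1, was 935, 1090.3 and 1538 in CD_CD and 2756, 1764 and 1872 in CD_WD. These did not overlap, but the log2 fold change of 0.85 ± 0.30 did not pass (limma adjusted p = 0.076), nor did 0.69 ± 0.30 with WD mothers (limma adjusted p = 0.11). Uqcrfs1, the Rieske iron-sulphur protein, passed with WD mothers (1.68 ± 0.41, limma adjusted p = 0.013) and not with CD mothers (1.11 ± 0.41, limma adjusted p = 0.089). The large subunits Uqcrc1 and Uqcrc2 stood at 0.93 ± 0.29 and 0.47 ± 0.30 with CD mothers and at 0.59 ± 0.29 and 0.56 ± 0.30 with WD mothers, and did not pass. The ratio of Uqcr10 to Uqcrc2 within a library was 1.58 to 2.74 in the CD offspring libraries and 9.54 to 41.2 in the WD offspring libraries.

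Complex IV reduces oxygen at a core encoded by mitochondrial DNA, which the nuclear subunits surround. All 10 of its widely expressed nuclear subunits in the table were called higher in both comparisons, with median log2 fold changes of 2.34 and 2.27. Cox5a (chr9:57521274-57532426), a matrix-side subunit, was 1168, 1001 and 1614 in CD_CD and 14753, 6122 and 6604 in CD_WD. It was 1313, 792 and 1220.4 in WD_CD and 10085, 10401 and 10920 in WD_WD, with the WD_WD libraries close together and far above WD_CD. Its log2 fold change was 2.77 ± 0.37 (limma adjusted p = 0.0013) and 3.27 ± 0.37 (limma adjusted p = 0.00036). Cox4i1, a regulatory subunit, rose by 2.50 ± 0.41 and 2.81 ± 0.41, Cox5b by 2.41 ± 0.40 and 2.68 ± 0.40, Cox6a1 by 2.37 ± 0.41 and 2.14 ± 0.41, Cox8a by 2.31 ± 0.42 and 2.40 ± 0.42, and Cox7a2, the lowest of these subunits, by 1.42 ± 0.32 and 1.83 ± 0.32. The ratio of Cox5a to Sdha within a library was 0.487 to 1.07 in the CD offspring libraries and 4.85 to 9.27 in the WD offspring libraries.

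Of the tissue isoforms of complex IV, Cox6b2 alone passed, and with WD mothers only. The heart and skeletal muscle isoforms Cox6a2, Cox7a1 and Cox8b had log2 fold changes of 1.50 ± 0.79, 0.55 ± 0.94 and 1.27 ± 1.37 with CD mothers and 1.66 ± 0.79, 0.0093 ± 0.94 and -1.0 ± 1.37 with WD mothers, and none passed. Cox8b was 429, 7.58 and 994 within WD_WD alone. Cox6b2, known as a testis isoform, was called higher with WD mothers (limma adjusted p = 0.025), but it had 0, 111 and 1 reads in the WD_CD libraries and 14, 59 and 141 in the WD_WD libraries, and its normalised counts overlapped. Cox7a2l, which takes part in joining complexes into supercomplexes, passed with WD mothers (1.08 ± 0.32, limma adjusted p = 0.028) and not with CD mothers (0.76 ± 0.32, limma adjusted p = 0.13).

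Complex V has a catalytic head, a rotating stalk and ring, and a fixed peripheral stalk. Atp5a1 and Atp5b, the alpha and beta subunits of the head, had log2 fold changes of 0.85 ± 0.30 and 0.74 ± 0.30 with CD mothers and 0.53 ± 0.30 and 0.74 ± 0.30 with WD mothers, and did not pass. Atp5b was 5083, 5072 and 6325 in CD_CD and 11728, 7771 and 8354 in CD_WD, which did not overlap. The subunits of the rotating stalk passed in both comparisons, with Atp5c1 (gamma) at 1.21 ± 0.32 and 1.18 ± 0.32, Atp5d (delta) at 1.85 ± 0.39 and 2.30 ± 0.39, and Atp5e (epsilon) at 2.85 ± 0.39 and 2.92 ± 0.39. Atp5e was 1782, 1281 and 1627 in CD_CD and 20774, 8305 and 8047 in CD_WD. The ratio of Atp5e to Atp5b within a library was 0.183 to 0.351 in the CD offspring libraries and 0.963 to 1.77 in the WD offspring libraries.

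The membrane ring of complex V is built from a single mature protein encoded by Atp5g1, Atp5g2 and Atp5g3. Atp5g1 was 1304, 1256 and 1489.9 in CD_CD and 11343, 4434 and 4809 in CD_WD, and 1337, 1156 and 1780.1 in WD_CD and 8374, 7476 and 7123 in WD_WD. Neither pair overlapped, and it rose by 2.21 ± 0.36 and 2.45 ± 0.36. Atp5g3 rose by 1.28 ± 0.35 and 1.70 ± 0.35, the first not passing without CD_WD replicate 1 (0.96, limma adjusted p = 0.054), and Atp5g2 passed with WD mothers (1.24 ± 0.37, limma adjusted p = 0.031) and not with CD mothers (1.13 ± 0.37, limma adjusted p = 0.060). Atp5l, a small membrane subunit, was 1419, 1123 and 1724 in CD_CD and 22240, 6993 and 8672 in CD_WD, and 1479, 1064 and 1166 in WD_CD and 14767, 13022 and 16056 in WD_WD. It rose by 2.98 ± 0.40 (limma adjusted p = 0.0013) and 3.57 ± 0.40 (limma adjusted p = 0.00036), with no overlap, while the membrane subunits Atp5k and Atp5j2 rose by 3.22 ± 0.40 and 3.02 ± 0.37 with CD mothers and 3.01 ± 0.40 and 2.96 ± 0.37 with WD mothers. Atp5o, which joins the peripheral stalk to the head, rose by 1.76 ± 0.41 and 2.31 ± 0.41. Atp5sl, a protein named after ATP synthase that is no subunit of it, stood at 0.093 ± 0.54 and -0.51 ± 0.54 and did not pass.

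The complexes can be set against each other within a library, where scaling does not enter. Relative to the mean of the 5 complexes, the mean log2 level of complex II was 0.067 to 0.64 in the 6 CD offspring libraries and -1.04 to -0.38 in the 6 WD offspring libraries, with no overlap. That of complex III was 0.24 to 0.49 and 0.56 to 0.85, again with no overlap, and that of complex I -0.66 to -0.50 and -0.66 to -0.50. Complex IV was at -0.60 to -0.14 with CD and -0.25 to 0.26 with WD, and complex V at -0.077 to 0.23 and 0.21 to 0.69, both overlapping. These means include the assembly factors of complexes I, IV and V and the tissue isoforms of complexes I and IV. Complex II has neither. The -0.25 of complex IV came from WD_WD replicate 2, where the mean log2 level of the tissue isoforms was lowest, 5.42. What the isoforms add to the overlap was not tested. The mean of the 5 includes complex II, so its lower place in the WD offspring libraries raises the differences of the other complexes. The separation of complex III is thus not shown apart from that of complex II. The median log2 fold changes of complexes I to V were 1.58, 0.40, 1.35, 2.04 and 1.67 with CD mothers, and 1.92, 0.43, 1.69, 2.11 and 1.79 with WD mothers. Of their members, 27, 1, 5, 10 and 11 were called higher with CD mothers and 32, 1, 6, 12 and 13 with WD mothers. Beside these, 9.46% and 14.2% of all genes were called higher. These are descriptions of lists of unequal size, and complex II rests on 4 genes.

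**Figure D4:**
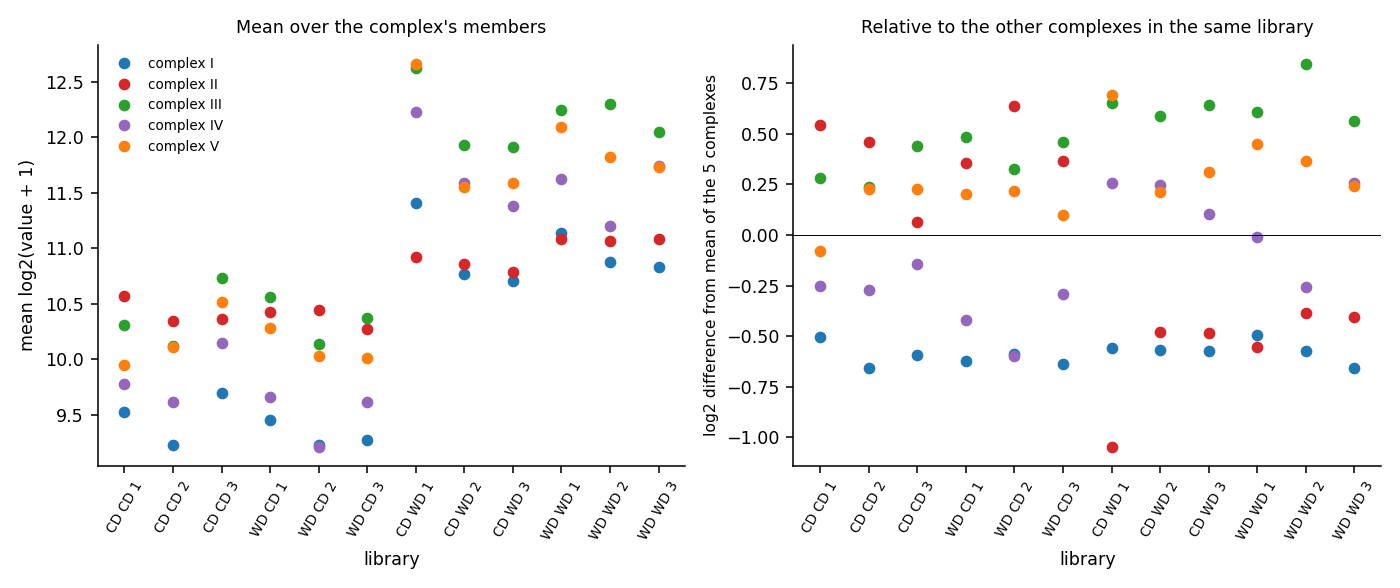
Mean log2(value + 1) over the members of each complex in each library (left), and the same relative to the mean of the 5 complexes in that library (right). On the right complex II lies at 0.067 to 0.64 in the CD offspring libraries and at -1.04 to -0.38 in the WD offspring libraries.

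Subunits of different roles gave different counts. Of 53 accessory subunits, 46 were called higher with CD mothers and 49 with WD mothers (medians 2.09 and 2.21), and of 21 core subunits 8 and 12 (medians 0.92 and 1.24). Within a library, the mean log2 level of the accessory subunits minus that of the core subunits was -0.050 to 0.24 in the CD offspring libraries and 0.91 to 1.42 in the WD offspring libraries. Of the 10 assembly factors, 0 passed with CD mothers and 2 with WD mothers. The shares called higher among all genes were 9.46% and 14.2%, and 10 factors are too few to be told apart from them.

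Transcript length moved with these differences, over the whole gene table. The median annotated transcript had 704 bases among accessory subunits, 1363 among core subunits and 2065.5 in complex II. Among all genes, those of up to 500 bases had a median log2 fold change of 1.98 with CD mothers and 2.48 with WD mothers, and those over 6000 bases -0.85 and -0.95. Genes of up to 1000 bases took 12.7% to 16.8% of the reads in listed genes in the CD offspring libraries and 33.6% to 40.9% in the WD offspring libraries. Of the 51 members of up to 1000 bases, 42 were called higher with CD mothers and 45 with WD mothers, 82.4% and 88.2%, beside 43.4% and 56.2% of the 715 other genes of that length. Of the 39 longer members, 13 and 20 were called higher, 33.3% and 51.3%, beside 6.53% and 10.6% of the 9791 other longer genes. Across the 90 members, which are not independent replicates, Spearman's rho of fold change and transcript length was -0.51 and -0.45, and across all 10596 genes with a length -0.40 and -0.37.

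**Figure D5:**
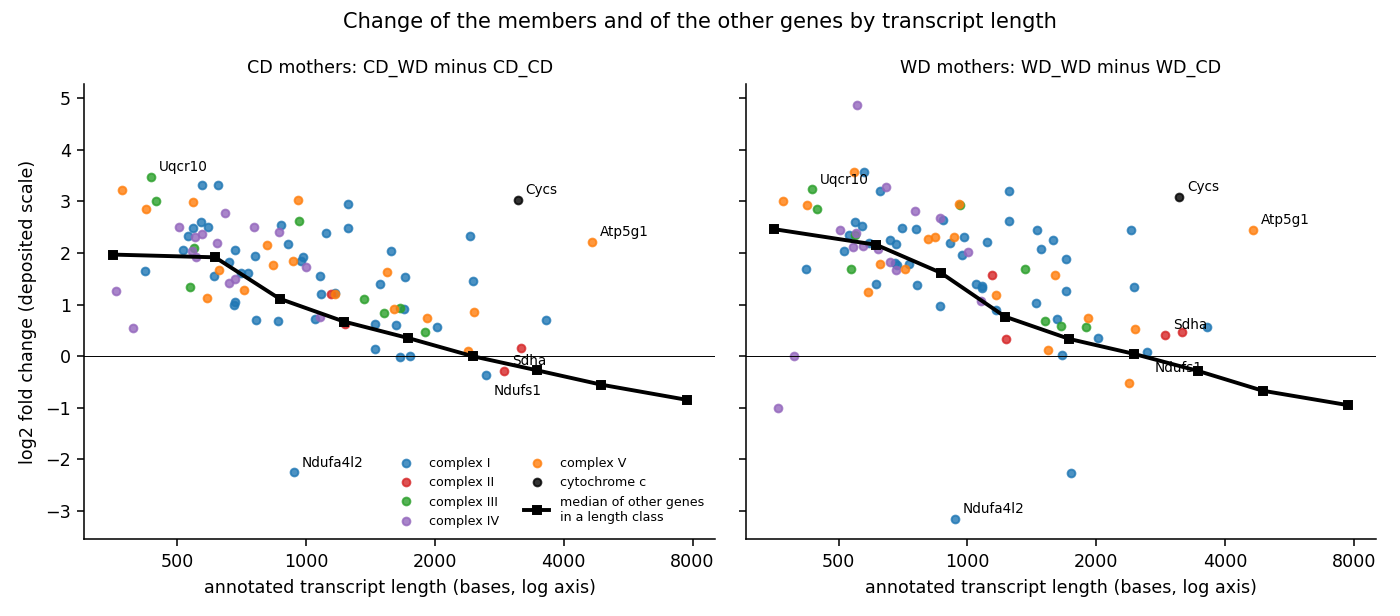
Log2 fold change between WD and CD offspring against annotated transcript length (log axis) for the 90 members, coloured by complex, with the median of the other genes in each length class as black squares, for CD mothers (left) and WD mothers (right). Cycs and Atp5g1, annotated at 3123 and 4660 bases, lie far above the squares, with log2 fold changes of 3.03 and 2.21 on the left. Their coding sequences have 315 and 408 bases.

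When the trend with transcript length was taken out of each library, an alternative chosen after seeing the data, fewer members passed. With CD mothers 17 were higher and 0 lower, where 5.55% of all genes were called higher and 2.85% lower, and the median was 0.44. With WD mothers 20 were higher and 1 lower (Ndufa1, -0.94), where 9.44% of all genes were called higher and 5.79% lower, and the median was 0.31. Cycs stood at 3.23 and 3.32 on this scale and Atp5g1 at 2.74 and 3.09. Their annotated transcripts are long, but their coding sequences have only 315 and 408 bases. Ndufb2, also with 315 coding bases and a transcript of 2413, stood at 2.31 and 2.43 on this scale. Without the coding length trend it stood at 0.99 and 0.89. Cycs and Atp5g1 also passed without the coding length trend. The median of complex II was then 0.16 with CD mothers and 0.57 with WD mothers, the lowest of the 5 complexes in the first and the highest in the second, and no member of it was called. The accessory subunits had medians of 0.57 and 0.34 and the core subunits 0.41 and 0.51. With coding length in place of transcript length, also chosen after seeing the data, 25 and 34 members were higher and none was lower, where 5.55% and 9.47% of all genes were called higher and 3.52% and 6.98% lower, and complex II had the lowest median in both, -0.062 and 0.18.

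On the deposited scale, on library totals and with either length trend taken out, 13 members were called higher in both comparisons (14.4% of 90), as were 151 of the 10390 genes with a value under all 4 settings. They are Ndufa2, Ndufa5, Ndufa13, Ndufb2, Ndufb7 and Ndufc1 of complex I, Uqcrq of complex III, Cox5a and Cox5b of complex IV, Atp5g1, Atp5j2 and Atp5l of complex V, and Cycs. The part that cell type markers, transcript length and the preparation have in these differences was not tested.

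The mother's diet was compared within CD offspring (WD_CD against CD_CD) and within WD offspring (WD_WD against CD_WD). No member was called by limma in either, where 0% and 0% of all genes were called, and the members' median log2 fold change was -0.090 and 0.025. With each library left out in turn the first ranged over -0.25 (without CD_CD replicate 2) to 0.040 (without CD_CD replicate 3) and the second over -0.15 (without CD_WD replicate 2) to 0.38 (without CD_WD replicate 1), and array weights gave 0.36 for the second, so neither sign held throughout. At an unadjusted p under 0.05, limma gave 1 member in CD offspring, Cox6b2, and 1 in WD offspring, Sdha, where 2.59% and 5.89% of all genes reached it. There edgeR gave 0 and 0 members, against 1.71% and 5.1% of all genes, and DESeq2 0 and 1, against 2.98% and 7.27%. Neither edgeR nor DESeq2 called a member after adjustment, where edgeR called 0% and 0% and DESeq2 0.0845% and 0.131% of all genes. Sdha was 1968, 2005 and 2186 in WD_WD, above the 1592, 1262 and 1353 of CD_WD, a log2 fold change of 0.55 ± 0.25 that did not pass (limma adjusted p = 0.84). The next smallest p in WD offspring were those of Ndufs1 (0.71) and Ndufaf7 (-1.64), and the smallest in CD offspring those of Cox6b2, Ndufaf1 (-1.94) and Ndufb9 (-0.63). Ndufaf7 had 52, 137 and 2 reads in WD_WD and Ndufaf1 187, 273 and 6 in WD_CD, and edgeR gave -0.88 and -1.09 for them. In the authors' deposited table of these comparisons no member had an adjusted p under 0.05, the lowest being 0.342 for Sdha in WD offspring.

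The interaction tests whether the difference between the offspring's diets depends on the mother's diet. No member was called by limma, where 0% of all genes were called, and none by edgeR or DESeq2, which called 0% and 0.0939% of all genes. At an unadjusted p under 0.05 limma, edgeR and DESeq2 gave 0, 0 and 1 members, where 3.21%, 2.87% and 4.25% of all genes reached it. The members' median was 0.12; with each library left out in turn it ranged over -0.041 (without CD_WD replicate 2) to 0.47 (without CD_WD replicate 1), and array weights gave 0.50. The smallest p were those of Sdha, Ndufaf7 and Ndufc2, with differences in log2 fold change of 0.69, -2.26 and 0.73; edgeR gave -1.52 for Ndufaf7. The 10 members called with WD mothers alone are therefore not shown to differ between the mothers' diets.

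Some other genes of the pathway were called higher too, where 9.46% and 14.2% of all genes were called higher with CD and WD mothers on the deposited scale. Of 21 complex IV assembly factors in the table, 6 were called higher with CD mothers and 9 with WD mothers and none lower, among them the copper chaperone Cox17 (2.37 ± 0.41 and 2.27 ± 0.41) and Pet100 (2.44 ± 0.42 and 2.71 ± 0.42). On library totals these factors gave 2 higher and 4 lower with CD mothers and 2 higher and 2 lower with WD mothers, and with the transcript length trend taken out 3 and 5 higher and none lower. With that trend taken out, 5.55% and 9.44% of all genes were called higher and 2.85% and 5.79% lower. Of 17 complex I assembly factors, 8 of which are members, 0 and 3 were higher, the latter Ndufaf3, Tmem126a and Tmem261. Without the transcript length trend none of the complex I factors was called with CD mothers, and 1 was higher and 1 lower with WD mothers. Of 6 complex III assembly factors 2 were higher in both, Uqcc2 (2.02 ± 0.37 and 2.38 ± 0.37) and Uqcc3 (1.78 ± 0.39 and 2.61 ± 0.39), and of the 4 and 3 for complexes II and V none was called. Without the transcript length trend no factor of complex II, III or V was called, so neither Uqcc2 nor Uqcc3 passed. Among 9 carriers, channels and uncoupling proteins 3 and 4 were higher, with Atpif1, the inhibitor of the ATP synthase, at 3.17 ± 0.31 and 3.58 ± 0.31 and Ucp2, an uncoupling protein also known from immune cells, at 2.41 ± 0.45 and 2.59 ± 0.45. Without the transcript length trend these 9 gave 2 higher and 1 lower with CD mothers, and 3 higher and 0 lower with WD mothers. On library totals 3.09% and 4.55% of all genes were called higher with CD and WD mothers, and 43.2% and 42.6% lower. There the complex I factors gave 0 higher and 2 lower with CD mothers and 0 higher and 3 lower with WD mothers. Those of complex III gave 0 higher and 0 lower with CD mothers and 2 higher and 1 lower with WD mothers. Those of complex V gave 0 higher and 2 lower with CD mothers and 0 higher and 1 lower with WD mothers. The carriers gave 1 higher and 4 lower with CD mothers and 2 higher and 3 lower with WD mothers.

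On the deposited scale, few matrix enzymes and genes that maintain mitochondria were called, and on library totals many were called lower. Of 18 genes of pyruvate oxidation and the citric acid cycle outside complex II, 1 was higher with CD mothers (Mdh2, 1.23 ± 0.33) and 2 with WD mothers (Pdhb, 1.24 ± 0.35, and Idh3g, 1.00 ± 0.31). Of 12 ubiquinone synthesis genes, 1 was higher with CD mothers (Coq7, 2.35 ± 0.72) and 0 with WD mothers. Of 12 genes that maintain and express mitochondrial DNA, none was called with CD mothers and 1 was lower with WD mothers (Mgme1, -4.88 ± 1.44). Mgme1 had 301, 309 and 235 reads in WD_CD and 38, 0 and 0 in WD_WD, so its fitted value depends on the pseudocount, and edgeR gave -2.17 (edgeR adjusted p = 0.28), which did not pass. Of 8 regulators of mitochondrial biogenesis, none was called with CD mothers and 1 was lower with WD mothers (Gabpb2, -2.06 ± 0.63). Scaled to library totals, where 43.2% and 42.6% of all genes were called lower, no gene of these 4 lists was higher; 12 and 11 of the citric acid cycle list, 3 and 3 of the ubiquinone list, 3 and 7 of the mitochondrial DNA list and 3 and 5 of the biogenesis list were lower with CD and WD mothers. With the transcript length trend taken out, 2 of the mitochondrial DNA list were lower with WD mothers and no other gene of the 4 lists was called.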

How the data were processed

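Per the submitters' processing notes, the authors used HISAT2 2.2.1 with GRCm38/mm10, featureCounts 2.0.1 and DESeq2, besides SAMtools 1.13, Trim Galore 0.6.10 and FastQC 0.12.1; the sources used here do not give their order or settings, the strand, or how multiply mapped reads were treated. The deposited normalised signal per gene is the read count divided by a size factor: whole reads were recovered for 100% of 127860 values (within 0.01 reads). The deposited table also holds the authors' log2 fold changes and p-values for the mother's diet.

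The members and lists were chosen with earlier results of these data known. The main test was limma 3.58.1 (R 4.3.3, trend) on log2(value + 1) in all 12 libraries, with group means, 8 residual degrees of freedom and Benjamini-Hochberg adjustment over 10655 genes; genes with an adjusted p under 0.05 were called. A filter at a mean of 1 removed 0 genes. Log2 fold changes are on the log2(value + 1) scale, and where a library is near 0, as for Ndufa4l2, they can exceed the log2 ratio of the group means. Alternatives were edgeR 4.0.16 and DESeq2 1.42.0 on recovered reads, other scalings, pseudocounts and filters, array weights, the fit of 2 groups alone, a replicate block, each library left out, and, chosen after seeing the data, removal of the trend with transcript or coding length in each library (lowess, span 0.3). Transcript lengths and gene positions are from the GENCODE annotation of GRCm38. The test was tried on simulated data that held no trend with transcript length, so that trial cannot speak to such a trend. Named are a panel set by role, the members with the smallest p in each comparison, the members with the highest and lowest fold change of each complex, and called genes of the other lists; Ndufa1, Ndufa5, Ndufa8, Ndufa9, Ndufa10, Ndufa13, Ndufb2, Ndufb3, Ndufs3, Ndufs7, Ndufs8, Ndufv2, Uqcrb, Uqcrh, the members Ndufaf2 to Ndufaf6 and the ratios between genes were chosen after values were seen. A member of the panel is counted with the others but not reported here by name. The roles and cell type markers were set by hand.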

Additional observations from a re-analysis of the deposited data

How the results depend on the processing

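No member was called lower on the deposited scale with either test of the counts, with TMM scaling, or with other pseudocounts and filters. TMM scaling shifted the median of all genes to -0.11 and -0.12. On library totals, 31 and 41 members were called in either direction with CD and WD mothers. There 3.09% and 4.55% of all genes were called higher and 43.2% and 42.6% lower. With the transcript length trend taken out, 17 and 21 members were called in either direction. Of all genes, 5.55% and 9.44% were then called higher and 2.85% and 5.79% lower. With the coding length trend taken out, 25 and 34 members were called in either direction. For all genes this was 5.55% and 9.47% higher, and 3.52% and 6.98% lower. Both length trends were chosen after seeing the data. The median over all members was 0.17 and 0.53 on library totals, 0.44 and 0.31 without the transcript length trend, 0.81 and 0.85 without the coding length trend, 1.06 and 1.24 after quantile normalisation, and 1.35 with CD mothers under array weights.

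Complex II's median minus that of all members was -0.29 and 0.26 without the transcript length trend, -0.87 and -0.67 without the coding length trend, and -0.78 with CD mothers under array weights. For complex IV the same was -0.094 and -0.29, -0.43 and -0.57, and 0.064 with CD mothers after quantile normalisation. Under array weights the members' median was 0.36 for the mother's diet in WD offspring and 0.50 for the interaction.

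Leaving out each replicate in turn gave 40 to 57 members called and medians of 1.33 to 1.78 with CD mothers, and 56 to 63 and 1.80 to 2.10 with WD mothers. Without CD_WD replicate 1, 8.51% of all genes were called higher with CD mothers. The shares of all genes in the other fits are not given here, so their counts cannot be set against the whole table. Complex II minus all members ranged over -1.50 to -0.82 and complex IV over 0.34 to 0.59 with CD mothers, and the members' median over -0.15 to 0.38 for the mother's diet in WD offspring and -0.041 to 0.47 for the interaction, the highest value of both without CD_WD replicate 1. With CD mothers the sign turned in at least 1 of these fits for Ndufv1 (-0.20 to 0.21) and Atp5sl (-0.42 to 0.51). With WD mothers the sign turned in at least 1 of these fits for Ndufs1 (-0.27 to 0.26), Ndufv1 (-0.24 to 0.21), Cox7a1 (-0.83 to 0.97) and Cox8b (-2.34 to 1.09).

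Changes of sign of single members and complexes under other settings, as log2 fold changes, were these. On library totals, with CD mothers, Sdhb stood at -0.23, Sdhc at -1.27, Sdhd at -0.80, Uqcrc1 at -0.51, Uqcrc2 at -0.96, Uqcrfs1 at -0.33, Cyc1 at -0.59, Cox7a1 at -0.82, Cox7a2 at -0.024, Cox7a2l at -0.68, Cox8b at -0.15, Atp5a1 at -0.59, Atp5b at -0.70, Atp5c1 at -0.24, Atp5g2 at -0.31, Atp5g3 at -0.16 and Atp5sl at -1.30. On library totals, with WD mothers, Ndufs1 stood at -1.27, Ndufv1 at -1.35, Ndufab1 at -0.048, Sdha at -0.97, Sdhc at -0.92, Sdhd at -1.04, Uqcrc1 at -0.80, Uqcrc2 at -0.82, Cyc1 at -0.69, Cox7a1 at -1.17, Cox7a2l at -0.30, Atp5a1 at -0.85, Atp5b at -0.64, Atp5c1 at -0.20 and Atp5g2 at -0.14. Without the transcript length trend, with CD mothers, Ndufa4 stood at -0.24, Sdhd at -0.060, Cox6a2 at -0.13, Cox6b2 at -0.019, Cox7a1 at -1.86, Cox7a2 at -0.26, Cox7a2l at -0.14, Cox8b at -1.23, Atp5g2 at -0.73 and Atp5g3 at -0.28. Without the transcript length trend, with WD mothers, Ndufv1 stood at -0.38, Ndufa4 at -0.68, Sdhd at -0.51, Cox6a1 at -0.040, Cox6a2 at -0.24, Cox7a1 at -2.69, Cox7a2 at -0.12, Cox7a2l at -0.030, Atp5g2 at -0.90 and Atp5g3 at -0.13. Without the coding length trend, with CD mothers, Ndufs1 stood at 0.046, Ndufv1 at 0.079, Ndufa4 at -0.082, Sdha at 0.073, Sdhc at -0.58, Sdhd at -0.20, Cox7a1 at -1.12, Cox7a2 at -0.20, Cox7a2l at -0.52, Cox8b at -0.55 and Atp5sl at -0.16. Without the coding length trend, with WD mothers, Ndufa4 stood at -0.44, Sdhc at -0.47, Sdhd at -0.68, Cox7a1 at -1.86 and Cox7a2l at -0.41. After quantile normalisation, with CD mothers, Sdhc stood at -0.40, Uqcrc1 at -0.070, Atp5a1 at -0.27 and Atp5b at -0.57. After quantile normalisation, with WD mothers, Ndufs1 stood at -0.011, Ndufv1 at -0.40, Sdha at -0.29, Sdhc at -0.22, Sdhd at -0.17, Uqcrc1 at -0.36, Atp5a1 at -0.61 and Atp5b at -0.44. With TMM scaling, with WD mothers, Ndufs1 stood at -0.050, Ndufv1 at -0.11 and Cox7a1 at -0.11. With edgeR, with WD mothers, Ndufs1 stood at -0.10, Ndufv1 at -0.11 and Cox8b at 0.19. With DESeq2, with WD mothers, Cox8b stood at 0.32. Under array weights, with CD mothers, Atp5sl stood at -0.29. Under array weights, with WD mothers, Ndufs1 stood at -0.085 and Ndufv1 at -0.015.

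The labels do not say whether replicate numbers pair the libraries. Deviations of same-numbered libraries correlated at -0.23 to 0.074 over 18 pairs, which shows no pairing but cannot exclude one. A fit with the replicate number as a block called 55 members with CD mothers and 65 with WD mothers, the same counts as the main fit. The share of all genes called with the block is not given here. Atp5s, Cox6b2, Cox7a1, Cox8b, Ndufa4l2, Ndufaf1 and Ndufaf7 have a library with 10 reads or fewer, so their fitted fold changes depend on the pseudocount.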
